A study of Mus musculus with 12 samples.

Results

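The neuregulin and ErbB genes followed here are the ligands Nrg1, Nrg2, Nrg4, Hbegf and Areg and the receptors Erbb2, Erbb3, Erbb4 and Egfr. They were taken as every array probe whose gene name equals one of these symbols, which gave 9 of 34844 gene names and 15 of 55681 probes. The study asked what deletion of the cardiac transcription factor Nkx2-5 from trabecular muscle does to the adult heart, in mice made as a model of ventricular non-compaction. RNA from the left ventricular wall with the apex, without the septum, was labelled with Cy3 and hybridized to 12 one-colour Agilent arrays, 4 for each of 3 groups of mice aged 6 months.

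All groups carried floxed Nkx2-5-ΔNeo alleles. The controls were described in the methods as littermates of genotype Nkx2-5-ΔNeo fl/fl:Cx40+/+, and thus without Cre. Both mutant groups also carried Cx40-creERT2, which drives a tamoxifen-dependent Cre in embryonic trabecular myocardium. TrbE10 mice came from mothers given tamoxifen at E10.5 and E11.5, while trabeculae form, and TrbE14 mice from mothers given it at E13.5 and E14.5. The labels call the controls not injected, and whether they met tamoxifen in the womb cannot be told from these sources. The labels' own names for the mutants, Nkx2-5Δtrab and Nkx2-5Δcomp, stand for these same groups. The labels give 1 sample per replicate and do not tie samples to litters, so each p-value measures the spread between these hearts.

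Neuregulin-1 is released by the endocardium, the inner lining of the heart, and binds ErbB4 on the neighbouring muscle cells, where ErbB4 pairs with ErbB2, a receptor that has a kinase but no ligand of its own. In the mouse embryo this signal is required for trabeculae to form, and in the adult it supports cardiomyocyte survival. ErbB3 binds neuregulins but has little kinase activity, Egfr is the receptor of the EGF-type ligands amphiregulin (Areg) and HB-EGF (Hbegf), and Nrg4 is an ErbB4 ligand best known as a product of fat.

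Probes are 60 bases long, and the sequences below are those behind the ligand results and behind a receptor that gave no signal above background. Exon annotation of the files' build was not used here, so each probe was read in its 3 forward frames. The Nrg1 probe lies at chr8:32928500-32928559 (mm9, minus strand) and is open in 1 frame up to a stop codon in its last 3 bases, shown in capitals. Nrg1 makes many isoforms with different ends, and transcripts without this stretch are not read by it. The Nrg4 probe spans chr9:55075745-55084303 on the minus strand, a stretch of 8559 bases that it can only match across an exon junction, and 1 of its frames is open throughout. The Erbb3 probe at chr10:128006424-128006483 (minus strand) also ends in a stop codon.
Nrg1: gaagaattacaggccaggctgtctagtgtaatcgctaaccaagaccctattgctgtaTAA
Nrg4: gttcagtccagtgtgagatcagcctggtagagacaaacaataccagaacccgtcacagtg
Erbb3: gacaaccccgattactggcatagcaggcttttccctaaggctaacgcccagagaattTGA

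Values are log2 of the background-subtracted signal after quantile normalization, called log2 signal below, and no probe's level is set against another's. A probe was kept when the scanner software marked it well above background in 3 or more of the 4 hearts of some group. This kept 10 probes of 6 members, and 5 probes were not kept, among them every probe of Nrg2, Erbb3 and Areg. A probe is called changed when its adjusted p in limma, a linear model fitted to all 24593 kept probes, is under 0.05.

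The deleted gene was lower in both mutants. Nkx2-5 had a log2 signal of 11.95, 12.23, 11.93 and 11.89 in control hearts, of 11.27, 11.67, 11.21 and 11.22 in TrbE10 and of 11.12, 11.57, 11.32 and 11.63 in TrbE14. No mutant heart reached the lowest control. The fall was called in TrbE10 (-0.66, SE 0.14, limma adjusted p = 0.0459) and not in TrbE14 (-0.59, adjusted p = 0.106), and it was not established whether the probe lies in the floxed part of the gene. Gja5, the Cx40 gene, changed by -0.64 in TrbE10 (adjusted p = 0.410) and -0.47 in TrbE14 (adjusted p = 0.572). The 5 cardiomyocyte markers Myh6, Myl2, Tnni3, Actc1 and Tnnt2 were well above background on all arrays, and none was called in any comparison. All control and TrbE14 arrays were on slide 1 and all TrbE10 arrays on slide 2, scanned separately, so for TrbE10 the slide and the group cannot be told apart. Y-linked signal was present in 1 control, 2 TrbE10 and 3 TrbE14 hearts.

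Among the 9 genes, Nrg1 rose and Nrg4 fell in TrbE10 hearts. No other member was called, and none was called in TrbE14. Thus 2 of the 6 members with a kept probe were called in TrbE10, where 2.15% of all 18021 gene names had a called probe, and 3 of the 10 kept member probes, against 1.69% of all probes. In TrbE14 the count was 0 of 6 members and 0 of 10 probes, with 0.76% of gene names and 0.602% of probes called, and between the mutants 0 of 6, where limma called no probe of the array (0%). At an unadjusted p under 0.05 there were 3 member probes in TrbE10 (16.4% of all probes), 4 in TrbE14 (13.6%), of which 1 is an Nrg4 probe kept through control alone, and 1 between the mutants (5.76%), and SAM called no member in either of these comparisons. The median change of the 6 kept members, each by its brightest kept probe, was -0.031 in TrbE10 and -0.023 in TrbE14. Over all probes the medians were -0.025 and -0.032.

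**Figure D1:**
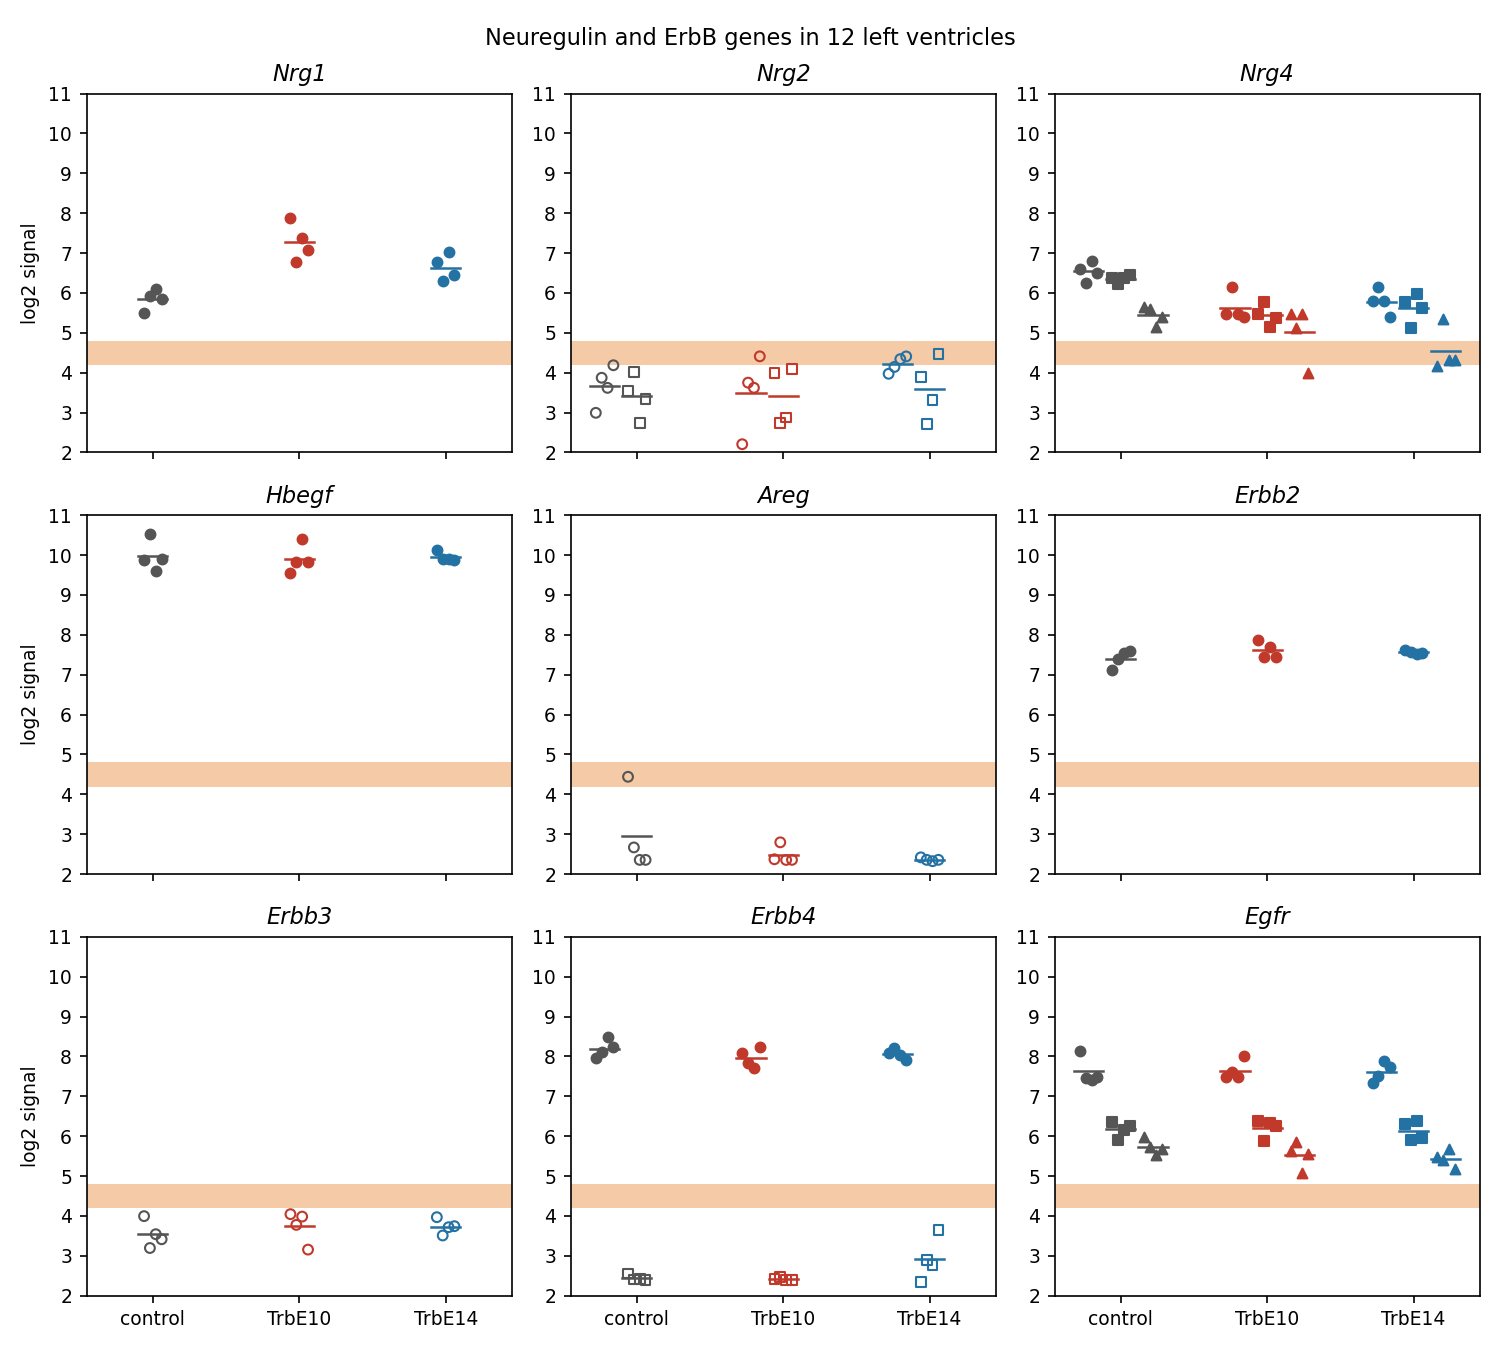
Log2 signal of the 9 neuregulin and ErbB genes in each of 12 hearts, by group. Each point is 1 heart, horizontal lines are group means, different shapes are different probes of a gene, open points are probes that were not kept, and the shaded band spans the lowest log2 signal marked well above background on each array (4.19 to 4.80). Nrg1 lies higher in both mutants than in any control, the upper pair of Nrg4 probes lies lower, and Nrg2, Erbb3 and Areg stay within or below the band.

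Nrg1, the endocardial ligand of trabeculation, had a log2 signal of 5.50, 5.93, 6.10 and 5.84 in control hearts. It was 7.89, 6.77, 7.37 and 7.06 in TrbE10 hearts and 6.76, 6.30, 7.02 and 6.45 in TrbE14 hearts. Every mutant heart therefore exceeded the highest control, and the mutant groups overlapped each other. The rise in TrbE10 was 1.43 on the log2 scale (SE 0.24, 95% interval 0.90 to 1.95), a 2.69-fold higher signal with a limma adjusted p of 0.0147. In TrbE14 it was 0.79 (95% interval 0.27 to 1.31), 1.73-fold, which was not called (limma adjusted p = 0.202). An exact two-sided permutation test of 4 against 4 hearts gave 0.0286 for each mutant, the smallest p that the design allows.

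Nrg1 was 0.64 higher in TrbE10 than in TrbE14 (95% interval 0.12 to 1.16), and this difference had an unadjusted p of 0.0206 and a limma adjusted p of 0.789. The mutants shared the same 4 control hearts. Within slide 1, in a fit of TrbE14 and control alone, the Nrg1 change had an adjusted p of 0.141. Leaving out TrbE10 replicate 3 moved the TrbE10 rise of Nrg1 to 1.39 with a limma adjusted p of 0.0540, and the 11 other omissions of a heart kept it called. A second background correction, normexp with an offset of 50, gave smaller rises of 0.75 in TrbE10 and 0.45 in TrbE14, the first still called.

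Nrg4 fell in TrbE10 on both of its brighter probes. On the brighter of these, at chr9:55068030-55068089 (minus strand), log2 signal was 6.60, 6.25, 6.80 and 6.50 in control hearts. It was 5.47, 6.15, 5.47 and 5.40 in TrbE10 and 5.79, 6.14, 5.81 and 5.40 in TrbE14. No mutant heart reached the lowest control, although replicate 2 of each mutant came near it (6.15 and 6.14 against 6.25). The change in TrbE10 was -0.92 (SE 0.20, 95% interval -1.35 to -0.48), which is 1.89-fold lower (limma adjusted p = 0.0451), and in TrbE14 it was -0.76 (adjusted p = 0.135).

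The probe across the exon junction, whose sequence is given above, read 6.38, 6.22, 6.36 and 6.44 in control hearts. In TrbE10 it read 5.46, 5.77, 5.15 and 5.36, and in TrbE14 5.77, 5.13, 5.98 and 5.63. These groups did not overlap with control either. Its change was -0.91 in TrbE10 (SE 0.18, limma adjusted p = 0.0282) and -0.72 in TrbE14 (adjusted p = 0.109). Exact permutation tests gave the smallest possible p, 0.0286, for both probes in both mutants. Over the 12 hearts these probes correlated with r = 0.77, and with r = 0.14 once each group's mean was removed, so they shared the difference between groups more than the order of hearts within a group.

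The third Nrg4 probe, at chr9:55088520-55088579 and designed on a cDNA clone, was well above background on 4 control, 2 TrbE10 and 1 TrbE14 arrays, and so was kept through the control group. It read 5.64, 5.60, 5.16 and 5.39 in control, 5.48, 5.13, 5.46 and 3.99 in TrbE10 and 4.17, 5.34, 4.31 and 4.31 in TrbE14. It was not called in either mutant (limma adjusted p = 0.567 and 0.283). Since most mutant arrays were not well above background, no size of change is given for it.

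The Nrg4 call in TrbE10 was close to its threshold. Of the 12 omissions of a heart, 3 kept the brighter probe called and 5 kept the junction probe called, with changes of -1.09 to -0.83 and -1.03 to -0.82. Without TrbE10 replicate 2, which lay nearest to control, the brighter probe changed by -1.09 with a limma adjusted p of 0.00993. Without TrbE10 replicate 3 neither Nrg4 nor Nrg1 was called. The normexp correction gave -0.44 for the brighter probe in TrbE10, which was called, and -0.29 in TrbE14.

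**Figure D2:**
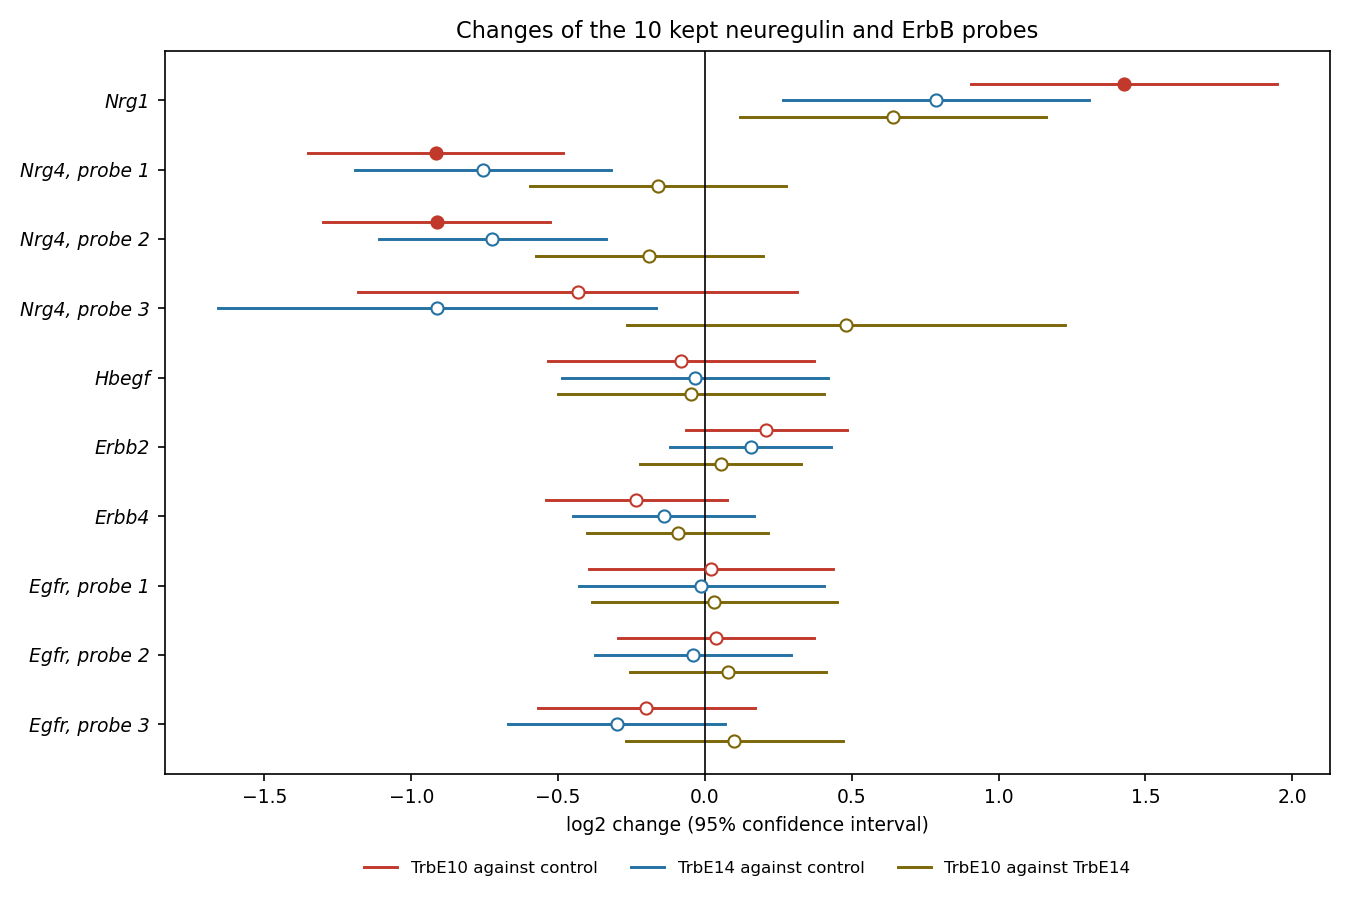
Log2 change of the 10 kept probes, with 95% confidence intervals from limma, for TrbE10 against control (red), TrbE14 against control (blue) and TrbE10 against TrbE14 (brown). Filled points have an adjusted p under 0.05. Probes of a gene are numbered from the brightest. The 3 filled points are Nrg1 at 1.43 and the first and second Nrg4 probes at -0.92 and -0.91, all in TrbE10, and the intervals of every receptor probe include 0. The third Nrg4 probe is drawn at its fitted change, with most mutant arrays not well above background.

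Hbegf, which encodes HB-EGF, a ligand of Egfr and ErbB4 held in the membrane until it is shed, showed no called change. Its probe (chr18:36664738-36664797, minus strand) read 9.88, 10.53, 9.61 and 9.91 in control, 9.54, 9.84, 10.39 and 9.83 in TrbE10 and 10.12, 9.90, 9.90 and 9.87 in TrbE14. The groups overlapped throughout. The interval of the difference from control was -0.54 to 0.37 in TrbE10 and -0.49 to 0.42 in TrbE14.

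Nrg2 and Areg gave no measurable level. Of the 2 Nrg2 probes, on chromosome 18, one was well above background on 1 TrbE14 array and the other on none, and their log2 signals ran from 2.20 to 4.47 over the 12 hearts. Areg (chr5:91570090-91570149, plus strand) was well above background on 0 of 12 arrays. Its log2 signal was 4.44 in control replicate 1 and between 2.32 and 2.80 in the 11 other hearts. No fold change is given for either gene.

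Among the receptors, Erbb2 was measured by 10 spots of the same probe on each array (chr11:98298103-98298162, plus strand). It read 7.11, 7.38, 7.54 and 7.58 in control, 7.87, 7.43, 7.70 and 7.45 in TrbE10 and 7.61, 7.57, 7.52 and 7.54 in TrbE14. The changes of 0.21 in TrbE10 (95% interval -0.065 to 0.48, limma adjusted p = 0.438) and 0.16 in TrbE14 (95% interval -0.12 to 0.43) were not called. The 10 spots of an array differed with a median SD of 0.088 on the log2 scale, while hearts of a group differed with a pooled SD of 0.174. By group, the SD of hearts was above that of the spots in control (0.212) and TrbE10 (0.211) and below it in TrbE14 (0.039).

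Erbb4, the neuregulin receptor of heart muscle, had probes that disagreed on whether it was measured at all. They were designed on different transcripts of the gene. One probe was well above background on 0 of 12 arrays, with log2 signals of 2.34 to 3.64. The other probe, at chr1:68078805-68078864 (minus strand), was well above background on all 12. That probe read 7.96, 8.10, 8.49 and 8.24 in control, 8.09, 7.82, 7.72 and 8.23 in TrbE10 and 8.07, 8.20, 8.04 and 7.91 in TrbE14. Its changes were -0.23 in TrbE10 (95% interval -0.54 to 0.074, limma adjusted p = 0.441) and -0.14 in TrbE14 (95% interval -0.45 to 0.17), both with overlapping groups. Erbb3 (sequence above) was not well above background on any array, with log2 signals of 3.15 to 4.04.

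Egfr was measured by 3 probes, all kept. The brightest, with 10 spots on each array (chr11:16813815-16813874, plus strand), read 8.14, 7.46, 7.41 and 7.49 in control, 7.48, 7.61, 7.47 and 8.02 in TrbE10 and 7.33, 7.51, 7.88 and 7.73 in TrbE14. It changed by 0.020 in TrbE10 (95% interval -0.40 to 0.44) and by -0.012 in TrbE14 (95% interval -0.43 to 0.40). The median SD of its 10 spots was 0.093 and the pooled SD of hearts 0.285. Of the other Egfr probes, that at chr11:16783556-16783615 changed by 0.038 and -0.040, and that at chr11:16787172-16787231 by -0.20 and -0.30 (limma adjusted p = 0.599 and 0.450), with 3 of 4 TrbE14 hearts below the lowest control on the latter. The 3 probes correlated with each other at r = 0.057 to 0.38 over the 12 hearts.

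Among the member probes 3 of 10 did not overlap with control in TrbE10, where 10.1% of all probes did not, and 3 of 10 in TrbE14, where 9.43% did not. In both mutants these were the Nrg1 probe and the brighter pair of Nrg4 probes. None of the 10 separated TrbE10 from TrbE14, where 3.16% of all probes did.

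The genes whose pattern over the 12 hearts was most like that of Nrg1 were, of 18010 ranked, the array's transcript ENSMUST00000089501 (r = 0.970), Coro1a (0.953), Usp47 (0.950), Vav1 (0.947) and the probe named NAP063041-1 (0.946). Coro1a encodes an actin regulator and Vav1 a signalling protein, both of blood cells, and Usp47 a deubiquitinase. With group means removed these correlations were 0.781 to 0.896. For Nrg4 they were the probe NAP002856-002 (0.962), Tspan6 and Tspan7 (both 0.947), 2310061C15Rik (0.945) and Flcn (0.941), and 0.803 to 0.952 with group means removed. Tspan6 and Tspan7 are tetraspanins and Flcn encodes folliculin. These are descriptions over hearts that share groups and slides.

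Some markers of other cells also differed between the groups. In whole ventricular tissue, fewer cells of a type and less RNA per cell cannot be told apart. Of the 4 macrophage markers well above background in every group, 2 rose in TrbE10 (Cd68 and Csf1r) and 1 in TrbE14 (Csf1r). Fcgr1, called in TrbE10 too, was kept through the mutant groups alone, being well above background on 0 control arrays. The summed linear signal of all 6 markers followed was 6292 to 7687 in control, 12570 to 14180 in TrbE10 and 10800 to 11800 in TrbE14, without overlap between any groups. Most of that sum was Csf1r, the brightest of the 6, with a mean log2 signal of 12.24 in control, 13.38 in TrbE10 and 13.15 in TrbE14. Emr1, Mrc1 and Cd163 each overlapped with control in both mutants. By the sum, the groups stood in the same order as for Nrg1, where TrbE10 and TrbE14 overlapped. Among controls, replicate 3 was highest in both Nrg1 and summed markers, and TrbE10 replicate 2 was lowest of its group in both. The highest Nrg1 of TrbE10 was in replicate 1 and the highest sum in replicate 3. In TrbE14, replicate 2 had the lowest Nrg1 (6.30) and the highest sum (11800). By mean log2 signal of the markers, control replicate 1, with the lowest Nrg1, was highest of its group (8.11). Cd163 was well above background on 2 control, 3 TrbE10 and 2 TrbE14 arrays. Of the 3 endocardial markers, Npr3 rose in TrbE10 (1.24, limma adjusted p = 0.0247). Plvap changed by 0.24 in TrbE10 and 0.31 in TrbE14 and Nfatc1 by -0.014 and -0.20, none of these called. Of the 5 endothelial markers none was called in either mutant. Dcn, 1 of 5 fibroblast markers, rose by 0.39 in TrbE10 and 0.50 in TrbE14 (limma adjusted p = 0.0376 and 0.0190). Sln, 1 of 4 atrial markers, rose by 3.80 in TrbE10 (adjusted p = 0.0177) and changed by 3.33 in TrbE14 (adjusted p = 0.0511). The other atrial markers were not called: Nppa changed by 2.07 and 1.65, Myl7 by -0.12 and -0.00056, and Myl4 by -0.087 and 0.086. Cpa3, 1 of 4 mast cell markers, was called higher in both mutants and was well above background on 0 control arrays. Of the other mast cell markers, none called, Mcpt4 and Cma1 were fitted higher and Kit lower (-0.16 and -0.53). The part of these cells in the Nrg1 result was not tested.

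For Nrg4, 7 adipocyte markers were followed, of which Lep was not kept and none of the other 6 was called. The median change of the 6 was -1.31 in TrbE10, -0.57 in TrbE10 without its replicate 2, and -0.34 in TrbE14. Their mean log2 signal spanned 8.41 to 9.38 in the controls, 5.80 to 8.80 in TrbE10 hearts and 7.87 to 9.01 in TrbE14 hearts, and the groups overlapped. TrbE10 replicate 2 had the lowest adipocyte markers of all hearts (5.80; Cidec 2.58 against 6.25 to 7.80 in the others) and the highest Nrg4 of its group on both called probes. The summed linear signal of the 6 markers was 32490 to 40370 in control, 29980 to 57830 in TrbE10 and 36860 to 60450 in TrbE14. Most of that sum was Fabp4, the brightest of the 6 (mean log2 signal 15.10 in control). Fabp4 alone was fitted above 0 (0.26 in TrbE10 and 0.35 in TrbE14), and the other 5 were fitted below 0 in both mutants. Of 4 brown fat markers, Ucp1 and Elovl3 were not kept. Cidea changed by 0.30 in TrbE10 and 0.33 in TrbE14, and Dio2 by 1.26 and 1.09, none of these called. The mean log2 signal of Cidea and Dio2 was 9.53 to 10.10 in control, 10.13 to 11.14 in TrbE10 and 10.17 to 10.76 in TrbE14. The part of fat in the Nrg4 result was not tested.

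**Figure D3:**
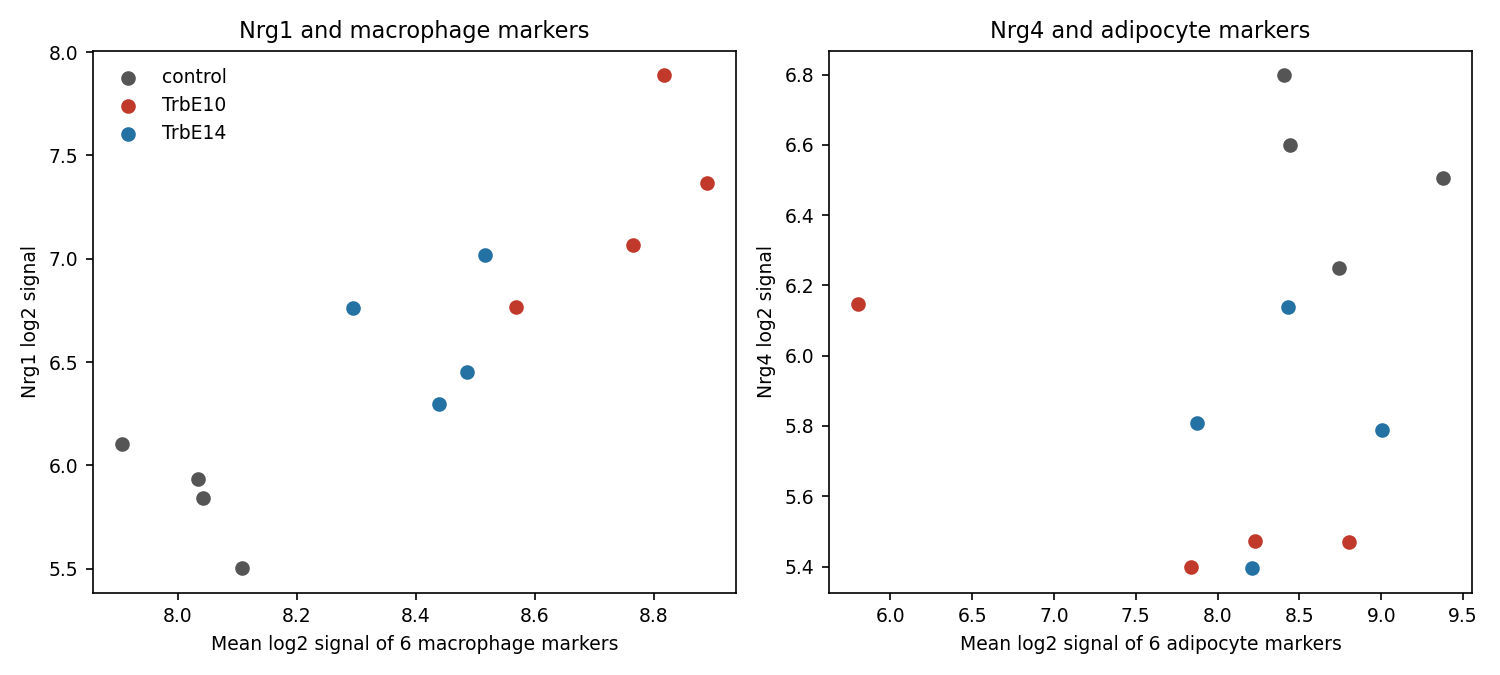
Left, Nrg1 log2 signal against the mean log2 signal of 6 macrophage markers in each of 12 hearts. Right, log2 signal of the brightest Nrg4 probe against the mean log2 signal of 6 adipocyte markers. Points are hearts, coloured by group. The mean of the macrophage markers separates control (7.91 to 8.11), TrbE14 (8.29 to 8.52) and TrbE10 (8.57 to 8.89). These 6 include Fcgr1, kept through the mutant groups alone, and Cd163, not well above background on every array. Adipocyte markers overlap and are lowest (5.80) in the TrbE10 heart with the highest Nrg4 of its group.

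Around the receptors, 49 further genes of the pathway were followed in 6 lists, and 40 of them were kept, each by its brightest probe. In TrbE10, 3 of the 40 rose and 0 fell (7.5% called), where 1.36% of all gene names had any probe called higher and 0.788% any called lower. In TrbE14, 2 rose and 0 fell (5% called), beside 0.583% and 0.178% of gene names by any probe, and between the mutants 0 were called. Counted by any of their probes, the called pathway genes were the same. The median change of the 40 was 0.054 in TrbE10 and 0.15 in TrbE14. The called genes were Etv4, Efnb2 and Bmp10, of which Bmp10 was kept through the mutant groups alone. Among the 37 genes well above background in every group, 2 rose in TrbE10 and 1 in TrbE14.

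Of the 6 other ligands of the EGF family, Tgfa, Btc, Ereg, Epgn and Nrg3 were not kept. Egf, the EGF precursor, was kept and changed by 0.18 in TrbE10 and 0.43 in TrbE14, neither called. All 9 genes of ligand shedding and processing, among them the sheddases Adam10 and Adam17 and the protease Bace1, which cleaves neuregulin-1, were kept and none was called. Their changes ran from -0.34 to 0.072 in TrbE10 and between -0.71 and 0.25 in TrbE14, the lowest being Adam12, which was well above background on 1 TrbE10 array, and Adam19.

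Of the 9 receptor adaptors and kinase subunits, Grb7 and Sos1 were not kept and none of the other 7 was called. Their extremes in TrbE10 were Gab1, a docking protein, at -0.24 (adjusted p = 0.476, limma) and Shc1, an adaptor, at 0.22 (adjusted p = 0.135). All 8 inhibitors and turnover genes were kept and none was called. Lrig3, a leucine-rich repeat membrane protein, showed the largest change of this list, 0.61 in TrbE10 and 0.62 in TrbE14 (limma adjusted p = 0.211 and 0.272). The feedback inhibitor Errfi1 changed by -0.18 and -0.20, and Rnf41, a ubiquitin ligase for ErbB3, by -0.098 and -0.057.

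Of 9 genes that ERK signalling is known to induce, Spry4 was not kept and 1 of the other 8, Etv4, rose in both mutants. Etv4, an ETS transcription factor, had a log2 signal of 6.66, 6.93, 6.67 and 7.02 in control, 7.61, 7.43, 7.93 and 7.66 in TrbE10 and 7.82, 7.74, 8.005 and 7.90 in TrbE14. All mutant hearts exceeded all controls. The rises were 0.84 (SE 0.12, limma adjusted p = 0.00754) and 1.05 (adjusted p = 0.00276). The median change of the 8 was 0.44 in TrbE10 and 0.45 in TrbE14, beside -0.025 and -0.032 over all probes, with 7 of 8 fitted above 0 in each mutant. Without Fos, which was well above background on 2 control, 2 TrbE10 and 3 TrbE14 arrays and was not called, the medians were 0.37 and 0.35. Myc had a larger fitted change in TrbE14, 1.19, which was not called (limma adjusted p = 0.465), and Etv5, related to Etv4, changed by 0.66 in TrbE10 (adjusted p = 0.105).

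Of 8 other genes of trabeculation, Has2, which makes the hyaluronan of the cardiac jelly, was not kept. Efnb2, the endothelial ligand ephrin-B2, read 8.74, 9.01, 9.17 and 8.96 in control, 9.52, 9.46, 9.80 and 9.50 in TrbE10 and 9.29, 9.45, 9.32 and 9.37 in TrbE14. It rose by 0.60 in TrbE10 (SE 0.11, limma adjusted p = 0.0213) and its change in TrbE14 was 0.39 (adjusted p = 0.165), again with every mutant heart above the controls. Bmp10, a growth factor of embryonic trabeculae, was not well above background on any control array, with log2 signals near 2.36, and read 6.55, 5.33, 7.59 and 7.05 in TrbE10 and 6.89, 6.60, 7.03 and 6.73 in TrbE14. Against the lowest signal well above background on the control arrays it was at least 4.19-fold higher in TrbE10 and at least 4.75-fold higher in TrbE14, bounds that hold for the quantile normalization. The limma adjusted p of 2.53e-04 and 2.82e-04 belong to the fitted changes against control arrays at background, not to these bounds.

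Notch1, the endocardial receptor upstream of neuregulin-1, changed by 1.75 in TrbE10 and 0.35 in TrbE14 and was not called in either (limma adjusted p = 0.240 and 0.839). All 7 kept genes of this list were fitted above 0 in both mutants, with a median of 0.37 in TrbE10 and 0.35 in TrbE14, also with Bmp10 at its bound, and of 0.32 and 0.35 without Bmp10. Ephb4, the receptor of ephrin-B2, changed by 0.21 and 0.31, and Vcan, which encodes versican, by 0.27 and 0.35.

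**Figure D4:**
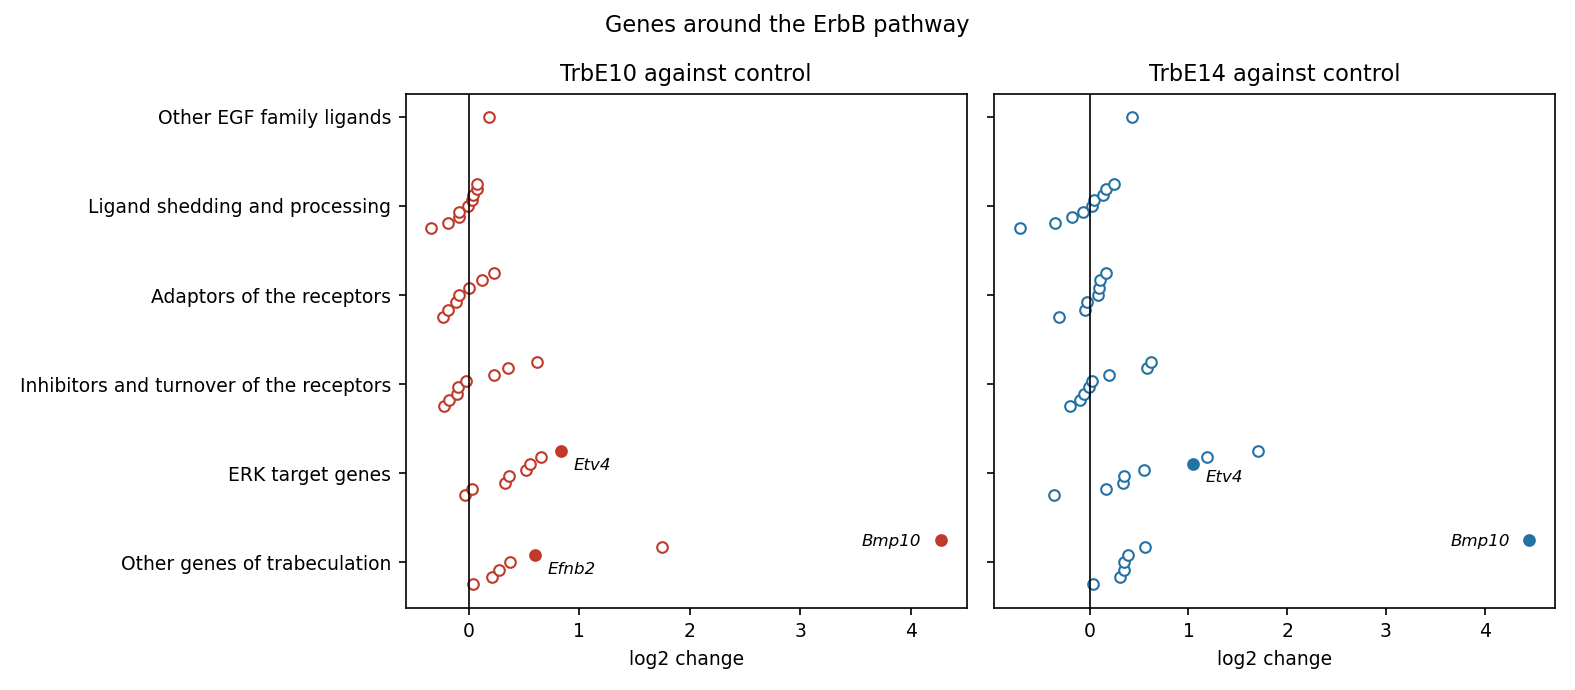
Log2 change against control of the 40 kept genes of 6 lists around the ErbB pathway, in TrbE10 (left) and TrbE14 (right). Each point is 1 gene, and filled, named points have an adjusted p under 0.05. The called genes are Etv4 and Bmp10 in both mutants and Efnb2 in TrbE10, and Bmp10 is drawn at its fitted change (4.27 and 4.45), with control hearts at background.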

How the data were processed

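The authors hybridized left ventricular RNA of 12 mice to 60-mer Agilent arrays and read them with Agilent Feature Extraction 10.5, per the file headers and the submitters' processing notes. The deposited processed signal is a linear intensity from which the scanner software had subtracted background, and arrays were not yet scaled to each other. A second deposited table holds log2 values that the authors had quantile normalized and filtered. It correlated with the values made here at 0.996 or more on every array and was used as an alternative. Probe coordinates are those of the files, in mm9.

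Of 62976 spots, 3671 control spots were left out, outlier spots (93 to 131 an array) were set to missing, and no spot was saturated. Log2 processed signals were quantile normalized with limma 3.58.1 (R 4.3.3, with data.table, version 1.17.8), and spots of a probe were averaged. Probes well above background on 75% of a group's arrays were kept (24593 of 55681, of which 7 had a missing value). The number of arrays limits the precision, and between 22888 and 26151 probes were well above background on an array.

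A model with 1 mean per group was fitted to all 12 arrays, with 9 residual and 2.19 prior degrees of freedom. The Benjamini-Hochberg adjustment ran over all kept probes of a comparison. Every adjusted p comes from limma. The fit was tested on simulated data. Exact permutation tests used all 70 label orders of 8 arrays. A gene's value is its kept probe with the highest mean signal. Named genes are the members, and from each list the called genes, the largest changes and genes whose result needed stating. Genes named for likeness to Nrg1 and Nrg4 are the 5 with the highest Pearson correlation. For the lower bounds of Bmp10, each control array gave its lowest signal well above background. The members and lists were chosen with earlier results of these data known. Alternatives were 75th percentile scaling, normexp background correction, other filters, the authors' values, fits of 2 groups, a replicate block, sex as a covariate, SAM at a false discovery rate of 5% (the methods' test), the mean of a gene's probes and leaving out each array. Figures were drawn in Python with matplotlib.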

Additional observations from a re-analysis of the deposited data

Results flagged for a closer look

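In each group of 4 hearts, the gap between the most extreme heart and its nearest neighbour was divided by the whole range of the group, and 4 of 30 groups exceeded Dixon's 95% critical value. Chance alone flags about 5% of groups. On the brightest Nrg4 probe, TrbE10 replicate 2 (6.15, the others 5.40 to 5.47) had a ratio of 0.901. On the third Nrg4 probe, TrbE14 replicate 2 (5.34, the others 4.17 to 4.31) had a ratio of 0.878. On Hbegf, TrbE14 replicate 1 (10.12, the others 9.87 to 9.90) had a ratio of 0.888. On the brightest Egfr probe, control replicate 1 (8.14, the others 7.41 to 7.49) had a ratio of 0.894.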

How the results depend on the processing

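Nrg1 in TrbE10 was called in all 11 other analyses of the full set of hearts (0.75 to 1.54, adjusted p 0.00326 to 0.0464). Since Nrg1 has 1 probe, the analysis by the mean of a gene's probes only repeats its main result. The brightest Nrg4 probe in TrbE10 was called in 5 of 10 (-0.98 to -0.44, adjusted p 0.0414 to 0.113). It was not called without the filter, in the fit of 2 groups, with the replicate block, or by SAM on either set of values. The junction probe of Nrg4 in TrbE10 was called in 8 of 10 (-0.98 to -0.40, limma adjusted p 0.0211 to 0.0764). These included the fit of 2 groups and SAM on either set of values, but not the analysis without the filter or the replicate block. Erbb2, Erbb4, Hbegf and Egfr were not called in any analysis. For Nrg1 in TrbE14 no analysis gave a call (adjusted p 0.0555 to 0.366). In all these cases the cause was not tested.

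The number of members called in TrbE10 was 1 without the filter and 1 with the replicate block, under which the adjusted p of Nrg1 was 0.0274. In TrbE14 it was 1 with normexp, through the junction probe of Nrg4 (-0.39, adjusted p = 0.0466). The mean of its 3 probes, for which members were not counted, was also called in TrbE10 (-0.75, adjusted p = 0.0318) and in TrbE14 (-0.80, adjusted p = 0.0434), but it includes the probe kept through control alone, and the other probes had adjusted p of 0.135 and 0.109 in TrbE14. Over the whole array, probes called in TrbE10 numbered 197 without the filter and 263 in the fit of 2 groups, beside 416. In TrbE14 they numbered 240 with normexp, 326 by SAM and 341 by SAM on the authors' values, beside 148. Between the mutants they numbered 1 with 75th percentile scaling, 2 without the filter, 1 with the replicate block and 4 by SAM on the authors' values, beside 0. SAM on the authors' values was chosen after seeing the data. Same-numbered hearts of a mutant and control had no correlation of their deviations over 0.1 (0 of 4 with either mutant). Between the mutants 3 of 4 were over 0.1 (0.309 to 0.476) and the other was -0.00829, beside 3 of 12 among differently numbered hearts, so not every pair passed and the numbers were not taken as pairing the hearts.

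Leaving out 1 heart at a time, members called ranged from 0 (without TrbE10 replicate 3) to 2 in TrbE10 and stayed at 0 in TrbE14 and between the mutants. Probes called in TrbE10 had a lowest count of 159, in the absence of its replicate 3, and a highest of 709, in the absence of its replicate 2. They ran from 83 (without control replicate 3) to 190 in TrbE14 and from 0 to 1 between the mutants.

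Only changes near 0, none of them called, turned sign. With sex as a covariate, Egfr in TrbE10 was -0.093, Hbegf in TrbE14 0.048 and Erbb2 between the mutants -0.015. With the mean of all probes, Egfr in TrbE10 was -0.047 and Nrg4 between the mutants 0.043. Over omissions of a heart, Egfr ran from -0.10 to 0.19 in TrbE10, from -0.10 to 0.16 in TrbE14 and from -0.093 to 0.12 between the mutants. Hbegf ran from -0.25 to 0.10, from -0.16 to 0.15 and from -0.21 to 0.074, and Erbb2 between the mutants from -0.033 to 0.11. Signal near background limits what can be said of Nrg2, Erbb3, Areg and the third Nrg4 probe.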
